A study of Mus musculus with 14 samples.

Results

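The genes described here write, copy, remove or act beside 2 repressive marks on chromatin, methylation of cytosine in DNA and methylation of lysine 27 of histone H3. They are 10 genes (Dnmt1, Dnmt3a, Dnmt3b, Uhrf1, Tet2, Tet3, Ezh1, Ezh2, Eed and Suz12) of 22033 gene symbols in the files. They were chosen by name with earlier results of these data known, and all 10 passed the filter on low values. RNA was measured in keratinocytes sorted by flow cytometry from back (dorsal) skin; the mice were wild-type C57BL/6, either 2 or 24 months old. The 12 libraries form 6 groups of 2: bulge stem cells of the hair follicle from skin in telogen, the resting phase (tBSC), interfollicular epidermis from telogen skin (Epi), and bulge stem cells from depilated skin, in which hair growth has been set off (aBSC), each at both ages. The labels give neither the sex of the mice nor whether each library is a different animal, and every p-value therefore rests on the spread among these libraries alone, which may be technical. The question the design puts to these genes is whether their RNA levels differ between resting stem cells, activated stem cells and epidermis, and between young and aged mice.

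Dnmt1 copies DNA methylation onto the new strand after replication, and Uhrf1 binds half-methylated DNA and brings Dnmt1 to it. Dnmt3a and Dnmt3b methylate DNA that carried no mark, while the Tet enzymes oxidise methylcytosine and so start its removal. Polycomb repressive complex 2 (PRC2) holds Eed and Suz12 together with Ezh1 or Ezh2 as its enzyme, and methylates lysine 27 of histone H3; Ezh2 is typical of dividing progenitors of the epidermis and Ezh1 of cells that rarely divide.

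The genome segments just upstream of the starts of the genes that differed most between populations, Uhrf1, Dnmt1 and Ezh2, and of Ezh1, which differed in the opposite direction, are printed here so that the sequence can be read beside the levels. They are 250 bases upstream of a RefSeq start in GRCm38.p6, given 5′ to 3′ on the gene's strand, and none of their bases lies in an exon of GENCODE M21. Capitals mark CCAAT or its reverse complement ATTGG, the box bound by NF-Y.
Uhrf1, chr17:56304063-56304312, plus strand: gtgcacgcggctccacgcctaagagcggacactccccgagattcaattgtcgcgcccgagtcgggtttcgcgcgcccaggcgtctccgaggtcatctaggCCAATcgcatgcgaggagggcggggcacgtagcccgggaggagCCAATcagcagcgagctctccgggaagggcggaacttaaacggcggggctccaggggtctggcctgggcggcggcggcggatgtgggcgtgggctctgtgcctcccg
Dnmt1, chr9:20952980-20953229, minus strand: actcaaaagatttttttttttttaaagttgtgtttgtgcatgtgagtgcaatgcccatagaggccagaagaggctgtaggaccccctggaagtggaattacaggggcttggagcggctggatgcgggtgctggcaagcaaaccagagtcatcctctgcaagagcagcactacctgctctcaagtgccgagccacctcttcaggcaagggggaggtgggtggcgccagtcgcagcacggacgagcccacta
Ezh2, chr6:47595031-47595280, minus strand: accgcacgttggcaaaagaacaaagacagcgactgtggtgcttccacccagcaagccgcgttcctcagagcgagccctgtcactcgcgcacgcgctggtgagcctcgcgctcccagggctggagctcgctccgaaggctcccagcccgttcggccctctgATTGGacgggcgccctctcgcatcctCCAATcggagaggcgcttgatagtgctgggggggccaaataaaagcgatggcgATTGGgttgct
Ezh1, chr11:101226464-101226713, minus strand: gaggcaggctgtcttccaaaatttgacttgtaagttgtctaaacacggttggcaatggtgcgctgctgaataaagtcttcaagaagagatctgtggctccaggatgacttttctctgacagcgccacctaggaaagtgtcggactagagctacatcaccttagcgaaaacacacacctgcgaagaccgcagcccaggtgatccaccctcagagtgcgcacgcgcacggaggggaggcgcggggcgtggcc
Where a gene has several starts, the segment shown is one free of exon bases. Of the 2 other Dnmt1 windows, 1 was also free of exon bases and held 2 CpG and 4 such boxes. The other overlapped an exon and held 3 boxes. The Uhrf1 segment held 30 CpG and 2 such boxes, the Ezh2 segment 23 CpG and 3 boxes, the Dnmt1 segment 7 CpG and no box, and the Ezh1 segment 14 CpG and no box. Over all 15 windows of the 10 genes (a gene has 1 window per annotated start), 7 windows of 5 genes held CCAAT or ATTGG, against 33.85% of 32851 mouse windows of this length. The E2F core, searched as TTCCCGC or TTGGCGC on both strands, was in 2 of the 15 windows, in 1 of the 2 Uhrf1 windows and in that of Suz12, against 5.62% of all windows. These matches are descriptions of letters and not of binding. The number of CpG ran from 2 to 51 per window, and 14 of the 15 windows lay above the mouse median of 6.

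Values are FPKM, which count fragments relative to transcript length and library depth, summed over the transcripts of a gene, on 1 common scale for the 12 libraries. Each library held an estimated 22.5 to 45.8 M fragments (M for mega), and the fragments behind a value ran from 96.1 to 355.9 for Dnmt3b and were at least 505.6 for each of the other 9 genes in every library. The bulge markers Cd34 and Krt15 fitted the labels in telogen: Cd34 stood between 944.5 and 1303 FPKM in tBSC and between 0.375 and 5.75 in Epi. Krt15 stood between 13530 and 15760 FPKM in tBSC and between 2874 and 5790 in Epi. In aBSC it stood between 2369 and 3026 FPKM, overlapping with Epi and not above it. In aBSC, Cd34 stood between 59.0 and 91.9 FPKM, far above Epi but far below tBSC, and 4 of 9 bulge markers were lower in aBSC than in tBSC and 1 higher. Of 6 epidermis markers, 1 was lower in tBSC than in Epi (Ly6a, log2 difference -4.28, adjusted p = 0.000428) and none was higher. Krt10, a keratin of differentiating epidermis, overlapped between all 3 populations, at 829 to 2325 FPKM in tBSC and 1391 to 1845 in Epi, and was at 4357 and 2173 in replicate 1 and 320 and 769 in replicate 2 of aBSC. In sorted bulk samples, fewer cells of a type and less RNA per cell cannot be told apart. Summed fibroblast markers ran from 7.01 to 427 FPKM in aBSC, with the highest value in replicate 1 at 2 months, against 15.8 to 17.3 in tBSC and 0.121 to 0.629 in Epi. Xist, the RNA of the inactive X chromosome, was at 15.8 to 141 FPKM in the 4 aBSC libraries and at most 0.28 in the other 8. Eif2s3y, on the Y chromosome, was at most 0.137 FPKM in aBSC and at 18.0 to 48.6 in the other 8. Ddx3y, Uty and Kdm5d, also on the Y chromosome, separated the libraries in the same way. By these genes the aBSC libraries were female and the others male, so depilation and the sex of the mice cannot be told apart in comparisons with aBSC.

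Resting bulge stem cells held less RNA of the copying machinery of DNA methylation and of Ezh2 than either other population, and more Ezh1. Differences are limma estimates of log2(FPKM + 1) with their standard error (SE), and a gene is called at a Benjamini-Hochberg adjusted p under 0.05 over 12468 genes. Over both ages, 5 of the 10 genes were called between tBSC and Epi (1 higher and 4 lower in tBSC), where 34.4% of all genes were called. Between aBSC and tBSC, 7 of the 10 were called (6 higher and 1 lower in aBSC), against 31.1% of all genes. By direction, 21.7% of all genes were higher and 12.7% lower in tBSC than in Epi, and 14% were higher and 17.1% lower in aBSC than in tBSC. The median difference of the 10 genes was -0.52 for tBSC minus Epi and 1.03 for aBSC minus tBSC, against 0.15 and -0.08 for all genes tested. Between aBSC and Epi, 1 of the 10 was called, higher in aBSC, against 22.6% of all genes (15.3% higher). These 3 comparisons share groups, so their values are set side by side and not counted as separate support. Since the 10 genes were chosen with earlier results known, the counts and medians describe them and do not test the family.

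**Figure D1:**
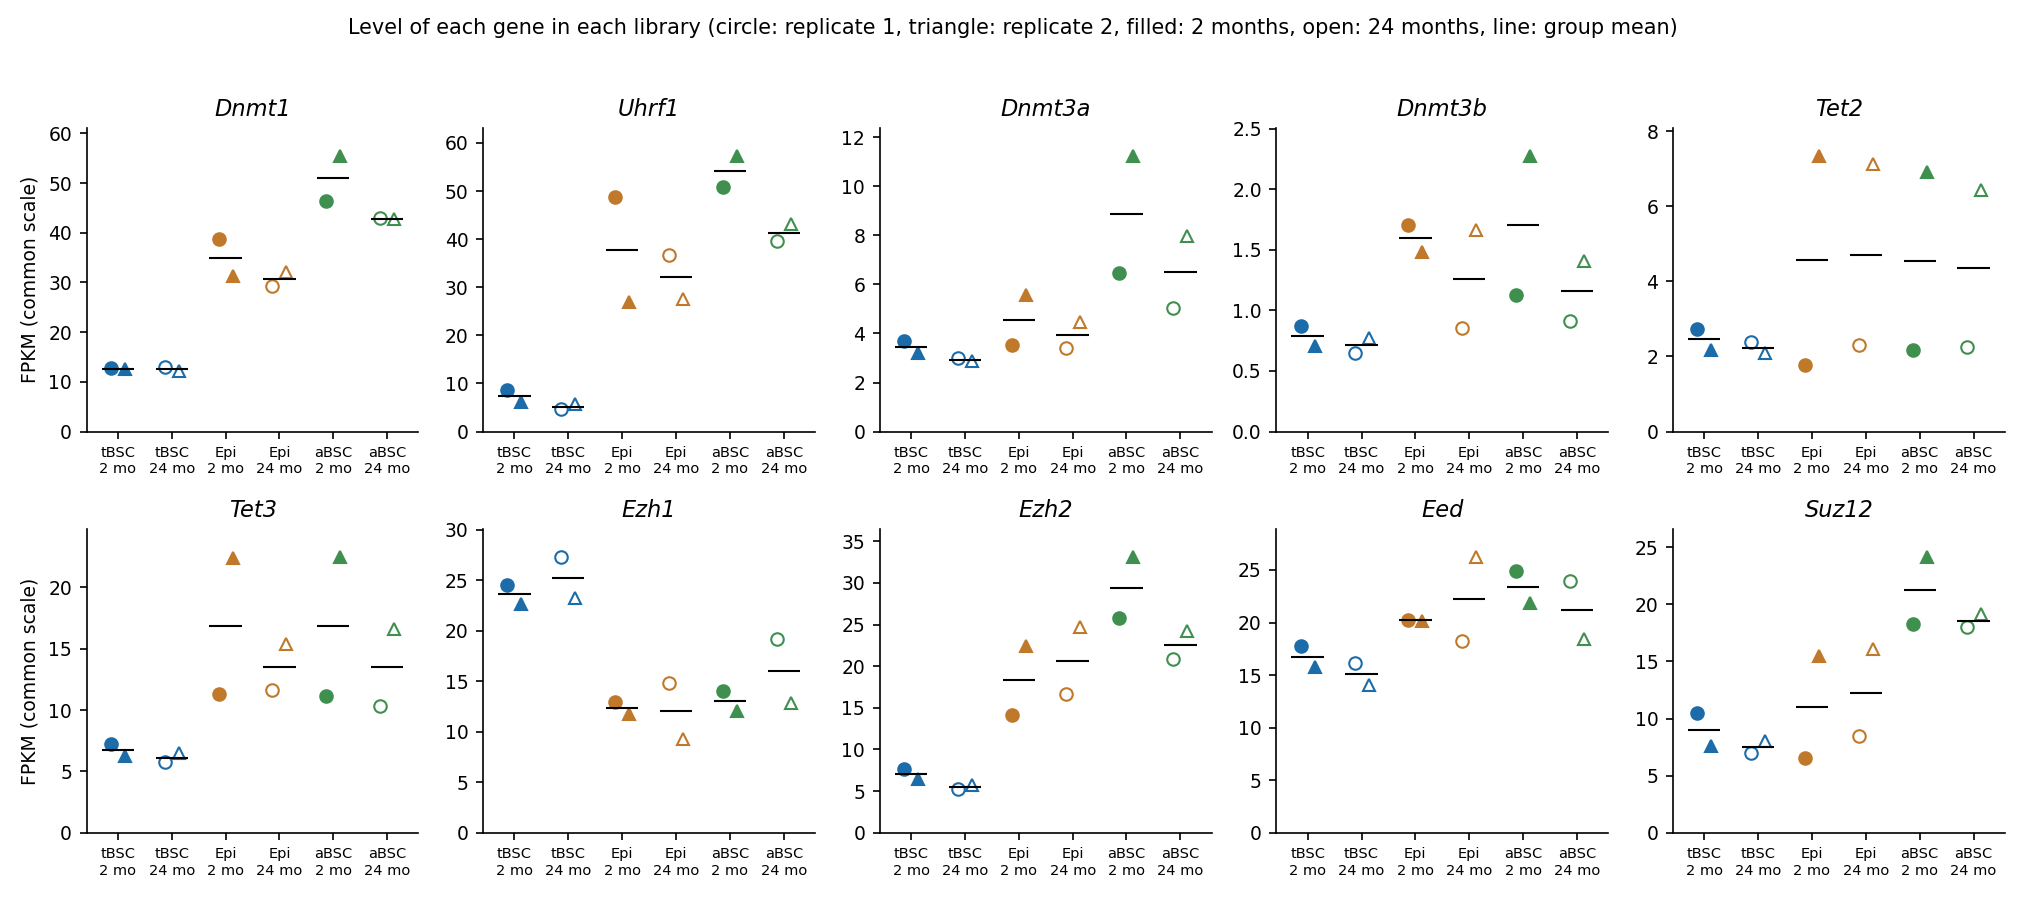
FPKM of the 10 genes (vertical axis, starting at 0, a scale of its own in each panel) in the 12 libraries, by population and age (horizontal axis); lines are group means of 2 libraries. Dnmt1, Uhrf1 and Ezh2 are lowest and Ezh1 highest in all 4 tBSC libraries, and Tet2 splits by replicate number in Epi and aBSC.

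Both genes of maintenance methylation were lowest in tBSC. Dnmt1 (mm9, chromosome 9, 20711650 to 20764332, minus strand) was at 12.7 and 12.6 FPKM in tBSC at 2 months and 13.1 and 12.2 at 24 months, at 38.7, 31.3, 29.3 and 32.1 in Epi and at 46.4, 55.5, 43.0 and 42.7 in aBSC, each in the order of replicates 1 and 2 at 2 months and then at 24 months. The 3 populations did not overlap in any library, with tBSC lowest and aBSC highest. Of all genes, 17.6% were likewise wholly higher in aBSC than in Epi. Dnmt1 was lower in tBSC than in Epi by a log2 difference of -1.30 (SE 0.16, adjusted p = 0.000156) and higher in aBSC than in tBSC by 1.80 (SE 0.16, adjusted p = 4.99e-05). For aBSC minus Epi the log2 difference was 0.50 (SE 0.16, adjusted p = 0.052), with the 4 aBSC libraries all above the 4 Epi libraries; it passed under 7 of 22 alternative settings, with adjusted p from 0.0143 to 0.244 over all of them. Uhrf1 (chromosome 17, 56442760 to 56462909, plus strand) was at 8.73, 6.15, 4.68 and 5.63 FPKM in tBSC, at 48.8, 26.8, 36.6 and 27.6 in Epi and at 50.8, 57.4, 39.5 and 43.2 in aBSC. All tBSC libraries lay below all others, while Epi and aBSC overlapped. Its log2 difference was -2.29 for tBSC minus Epi (SE 0.22, adjusted p = 2.75e-05) and 2.75 for aBSC minus tBSC (SE 0.22, adjusted p = 2.84e-05), the largest of the 10 genes in both comparisons. The 2 genes also differed in proportion: Uhrf1 was at 0.359 to 0.686 of the Dnmt1 level in tBSC, 0.857 to 1.26 in Epi and 0.920 to 1.09 in aBSC. In Epi this proportion split by replicate number, at 1.26 and 1.25 in replicate 1 and 0.857 and 0.861 in replicate 2. The proportion carries no test. Dnmt1 and Uhrf1 were called at each age alone in both comparisons, and of all 10 genes only Ezh2 shared this.

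At single ages, 3 genes (Dnmt1, Uhrf1 and Ezh2, all lower in tBSC) were called between tBSC and Epi at 2 months, where 20.1% of all genes were called (7.15% lower), and 4 at 24 months (the same 3 and Ezh1, higher in tBSC), against 20.5% (12.8% higher and 7.74% lower). Between aBSC and tBSC, 4 were called at 2 months (the same 3 and Dnmt3a, all higher in aBSC), against 12.8% of all genes (6.6% higher), and the same 3 at 24 months, against 8% (4.11% higher). No gene of the 10 was called between aBSC and Epi at 2 months (12.7% of all genes; 4 of the 10 at an unadjusted p under 0.05) or at 24 months (12.6%; 0 of the 10). Calls at single ages held less firmly. For tBSC against Epi, that of Ezh2 at 2 months ended under 5 of 22 alternatives (adjusted p up to 0.106), that of Ezh1 at 24 months under 4 (up to 0.192) and that of Dnmt1 at 24 months without replicate 2 of tBSC at that age (0.0546). For aBSC against tBSC, the Dnmt3a call at 2 months ended under 9 of 22 (up to 0.241) and the Ezh2 call at 24 months without replicate 1 of tBSC at that age (0.0535). The Uhrf1 log2 difference for aBSC minus tBSC was 2.72 (SE 0.32) at 2 months and 2.78 (SE 0.32) at 24 months, and that of Dnmt1 was 1.92 (SE 0.23) and 1.68 (SE 0.23). Activation did not differ between the ages for any of the 10 genes at an adjusted p under 0.05, with log2 differences between the activation effects from -0.24 (Dnmt1, SE 0.33) to 0.16 (Ezh1, SE 0.40).

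**Figure D2:**
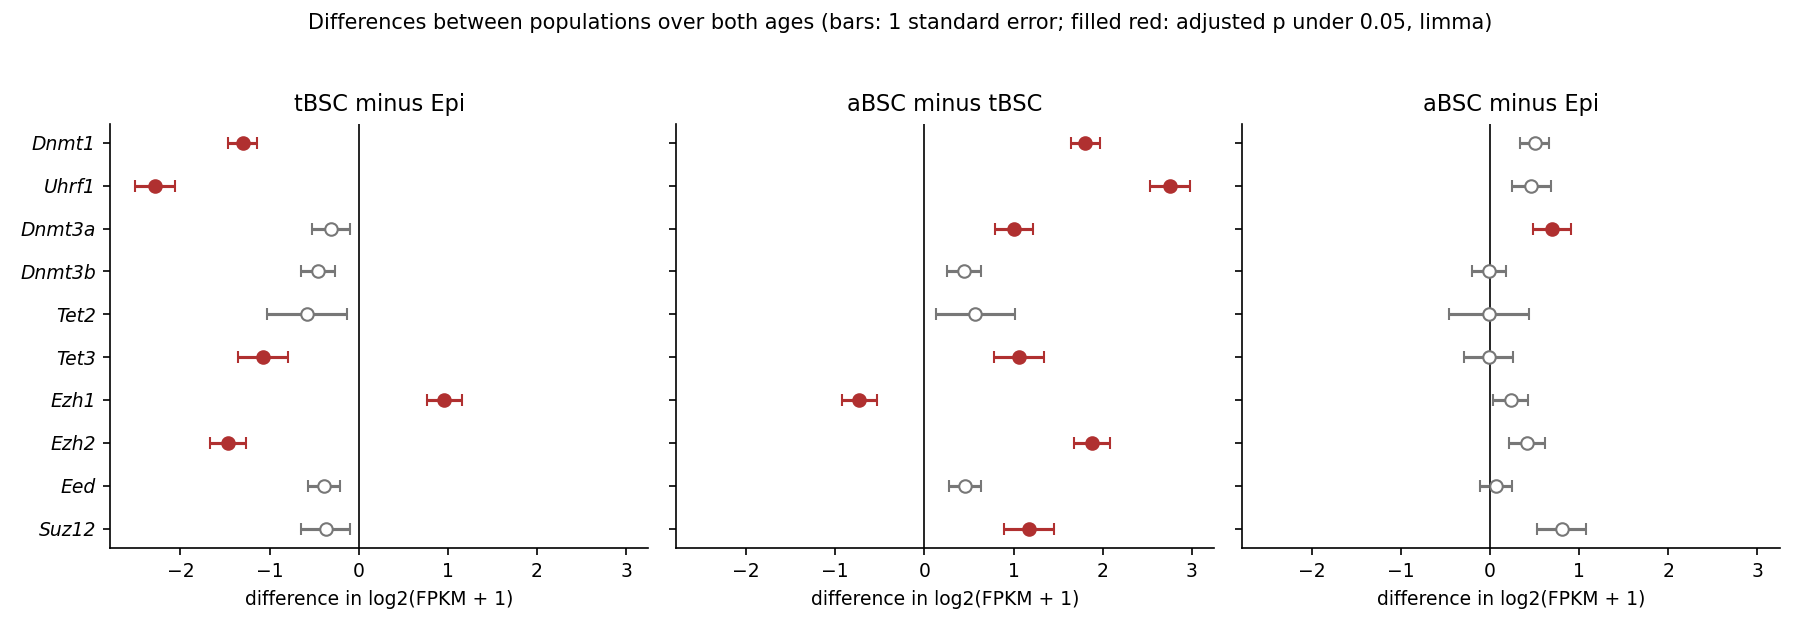
Difference in log2(FPKM + 1) between populations over both ages (horizontal axis) for the 10 genes (vertical axis), 4 libraries against 4, with 1 SE; filled red points have an adjusted p under 0.05. Ezh1 sits on the opposite side of 0 from Uhrf1, Dnmt1 and Ezh2 in the first 2 panels, and only Dnmt3a is filled in the third.

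RNA of the de novo enzymes was far less abundant. Dnmt3a (chromosome 12, 3806980 to 3914443, plus strand) was at 3.71, 3.19, 2.997 and 2.87 FPKM in tBSC, at 3.53, 5.58, 3.42 and 4.47 in Epi and at 6.46, 11.3, 5.04 and 7.98 in aBSC. All aBSC libraries lay above all tBSC libraries, and tBSC overlapped with Epi. Dnmt3a was higher in aBSC than in tBSC by a log2 difference of 1.01 (SE 0.22, adjusted p = 0.00764). Against Epi it was higher in aBSC by 0.70 (SE 0.22, adjusted p = 0.0428), a call that ended under 15 of 22 alternative settings, with adjusted p from 0.00948 to 0.172. For tBSC minus Epi the log2 difference was -0.31, with an interval of 2 SE from -0.74 to 0.12. Dnmt3a has 2 annotated transcripts, and the short one, of 5424 nt and starting inside the gene, made up 20.2%, 24.6%, 24.4% and 21.8% of Dnmt3a in tBSC, 1.66%, 9.20%, 0.000309% and 9.33% in Epi, and 13.8%, 10.9%, 23.3% and 14.0% in aBSC. The share was thus higher in every tBSC library than in every Epi library, while aBSC overlapped with tBSC; it was formed after the values were seen and carries no test. With its main transcript alone, of 9735 nt, the aBSC minus Epi difference of Dnmt3a was 0.55 (adjusted p = 0.116).

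Dnmt3b (chromosome 2, 153475190 to 153513466, plus strand) was the least abundant of the 10 genes, at 0.872, 0.704, 0.651 and 0.773 FPKM in tBSC, 1.71, 1.48, 0.852 and 1.66 in Epi and 1.13, 2.28, 0.912 and 1.40 in aBSC. The aBSC libraries all lay above the tBSC libraries, as for 20.1% of all genes. Replicate 1 of Epi at 24 months fell among the tBSC values. Neither difference passed the test: for aBSC minus tBSC it was 0.44 (SE 0.19, adjusted p = 0.0946) and for tBSC minus Epi -0.46 (SE 0.19, adjusted p = 0.087). With quantile normalization the second was -0.80 (adjusted p = 0.0123), and it passed under 4 of 21 alternatives, against 1 of 21 for the first. Dnmt3b was under 1 FPKM in every tBSC library and passed the filter on low values only through Epi and aBSC. The filter thus favoured a difference in this direction, and the tests against tBSC are no independent support for it. At these levels the added 1 in log2(FPKM + 1) understates a fold change. Tet1, the third Tet enzyme, was at most 0.726 FPKM in any library.

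The demethylation enzymes varied with the replicate number in Epi and aBSC, and Tet3 also differed between populations. Tet2 (chromosome 3, 133126641 to 133207354, minus strand) was at 2.74, 2.18, 2.37 and 2.09 FPKM in tBSC, at 1.78, 7.35, 2.31 and 7.12 in Epi and at 2.17, 6.91, 2.25 and 6.44 in aBSC. Replicate 2 was the higher library in each of the 4 Epi and aBSC groups, and replicate 1 of these groups overlapped with tBSC. The log2 difference of Tet2 was -0.58 for tBSC minus Epi (SE 0.45) and 0.57 for aBSC minus tBSC (SE 0.45, adjusted p = 0.34). Without replicate 2 of Epi and aBSC, an alternative added after seeing the data, these became 0.14 and -0.06, with the opposite sign. Tet3 (chromosome 6, 83312368 to 83391672, minus strand) was at 7.25, 6.23, 5.74 and 6.51 FPKM in tBSC, at 11.3, 22.4, 11.7 and 15.4 in Epi and at 11.1, 22.5, 10.4 and 16.6 in aBSC. Again replicate 2 was the higher library in Epi and aBSC, but here all 8 lay above the 4 tBSC libraries. Tet3 was lower in tBSC than in Epi by -1.08 (SE 0.28, adjusted p = 0.0127) and higher in aBSC than in tBSC by 1.06 (SE 0.28, adjusted p = 0.0177). The first call ended without replicate 1 of tBSC at 24 months (adjusted p = 0.0502).

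Transcript length moved with this split, but the split was not confined to the longest transcripts. Replicate 2 was also the higher library of each Epi and aBSC group for Dnmt3a, Suz12 and Ezh2, and the lower one for Ezh1. The longest Ezh2 transcript has 2652 nt. Tet2, Tet3 and Dnmt3a have the longest transcripts of the 10 genes, 9181, 10906 and 9735 nt, and over the 437 tested genes of at least 8000 nt the median of replicate 2 minus replicate 1 was 0.64 in Epi at 2 months, 0.37 in Epi at 24 months, 0.77 in aBSC at 2 months and 0.32 in aBSC at 24 months on the log2 scale. In tBSC it was -0.20 and 0.03. Total FPKM per library also split by replicate in Epi and aBSC, at 418600 to 626800 in replicate 2 and 642100 to 736100 in replicate 1. The part of this in the split was not tested. With each library's trend on length removed, the aBSC minus tBSC difference of Tet3 was 0.53 (adjusted p = 0.00821), that of Dnmt3a 0.52 (adjusted p = 0.00877) and that of Tet2 0.10 (adjusted p = 0.818), and the tBSC minus Epi difference of Tet3 was -0.86 (adjusted p = 0.00038). The call of Tet3 between aBSC and tBSC ended when any of 5 single libraries was left out (replicate 2 of tBSC at 2 months, either tBSC library at 24 months, replicate 2 of aBSC at either age), with adjusted p from 0.0519 to 0.0686.

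RNA levels of the 2 enzymes of PRC2 went in opposite directions. Ezh2 (chromosome 6, 47480273 to 47545029, minus strand) was at 7.67, 6.47, 5.31 and 5.70 FPKM in tBSC, at 14.1, 22.5, 16.6 and 24.7 in Epi and at 25.8, 33.1, 20.9 and 24.2 in aBSC. Ezh1 (chromosome 11, 101052429 to 101087764, minus strand) was at 24.5, 22.7, 27.3 and 23.2 FPKM in tBSC, at 12.9, 11.7, 14.8 and 9.32 in Epi and at 14.1, 12.1, 19.2 and 12.8 in aBSC. For both genes the tBSC libraries stood apart from all others, and Epi and aBSC overlapped. Ezh2 was lower in tBSC than in Epi by a log2 difference of -1.47 (SE 0.20, adjusted p = 0.000323) and higher in aBSC than in tBSC by 1.88 (SE 0.20, adjusted p = 0.000161). Ezh1 was higher in tBSC than in Epi by 0.96 (SE 0.20, adjusted p = 0.0038). Ezh1 was lower in aBSC than in tBSC by -0.73 (SE 0.20, adjusted p = 0.0209), but this call depends on the scaling: with equal library totals it was -0.30 (adjusted p = 0.175), and it also ended without any 1 of the 4 tBSC libraries or of the replicate 2 libraries of aBSC (adjusted p from 0.056 to 0.0923). For aBSC minus Epi, the Ezh2 difference was 0.41 (SE 0.20, interval of 2 SE from 0.00 to 0.82) and that of Ezh1 0.23 (SE 0.20, interval from -0.16 to 0.63).

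The ratio of Ezh1 to Ezh2 puts both in 1 number per library, free of any scaling between libraries. It was 3.20, 3.51, 5.14 and 4.07 in tBSC, 0.916, 0.521, 0.890 and 0.378 in Epi and 0.546, 0.365, 0.918 and 0.529 in aBSC. Ezh1 RNA was the more abundant of the 2 in all 4 tBSC libraries and Ezh2 RNA in all 8 others. In each Epi and aBSC group the ratio was lower in replicate 2 than in replicate 1. The ratio was formed after the values were seen and is given with no test. The summed RNA level of the 2 genes was 30.7 ± 1.96 FPKM in tBSC (SD, n = 4), 31.7 ± 3.32 in Epi and 40.5 ± 3.40 in aBSC, so the tBSC and Epi means lay closer together than 1 SD.

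**Figure D3:**
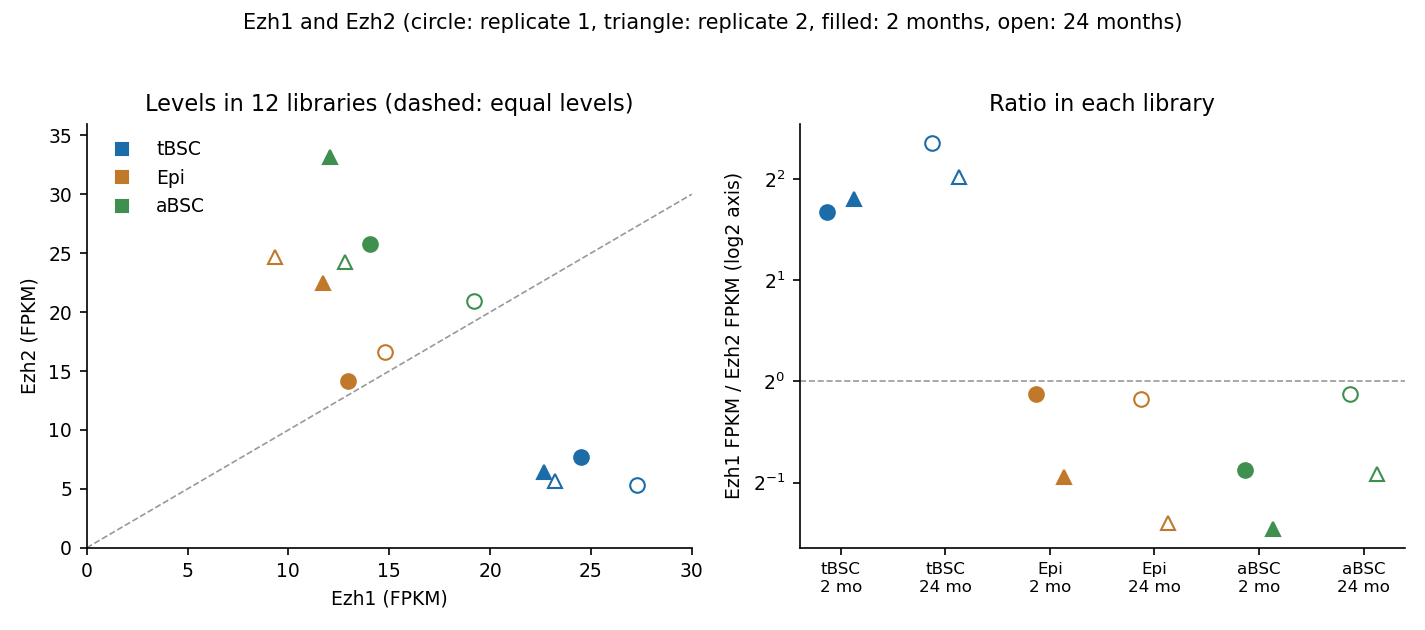
Left, Ezh2 against Ezh1 (FPKM) in the 12 libraries, with a dashed line where both are equal; right, the ratio of Ezh1 to Ezh2 per library on a log2 axis. The 4 tBSC libraries have ratios of 3.20 to 5.14, and the 8 Epi and aBSC libraries lie below 1, from 0.365 to 0.918.

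Of the non-catalytic core of PRC2, Suz12 differed between populations in 1 comparison and Eed in none. Eed (chromosome 7, 97103164 to 97129486, minus strand), the subunit that binds the methylated histone, was at 17.7, 15.7, 16.1 and 14.0 FPKM in tBSC, at 20.3, 20.2, 18.3 and 26.2 in Epi and at 24.9, 21.9, 24.0 and 18.5 in aBSC. The tBSC libraries were the 4 lowest. Of all genes, 16.1% were wholly lower in tBSC than in Epi and 20.1% wholly higher in aBSC than in tBSC. Neither Eed difference passed the test: -0.39 for tBSC minus Epi (SE 0.18, adjusted p = 0.124) and 0.46 for aBSC minus tBSC (SE 0.18, adjusted p = 0.0752). Eed did pass under 2 of 22 alternatives in the first comparison, with -0.63 (adjusted p = 0.0186) when the length trend was removed, and under 5 of 22 in the second, with 0.89 (adjusted p = 0.00974) at equal library totals. Suz12 (chromosome 11, 79806608 to 79847625, plus strand), needed for the stability of the complex, was at 10.4, 7.62, 7.005 and 8.05 FPKM in tBSC, at 6.50, 15.5, 8.46 and 16.1 in Epi and at 18.3, 24.2, 18.0 and 19.12 in aBSC. All aBSC libraries lay above all others, and within Epi both replicate 2 libraries lay above both replicate 1 libraries, which overlapped with tBSC. Suz12 was higher in aBSC than in tBSC by 1.17 (SE 0.28, adjusted p = 0.0116), a call lost without replicate 2 of tBSC at 2 months (adjusted p = 0.0544) or replicate 1 at 24 months (adjusted p = 0.0509). For aBSC minus Epi it was 0.80 (SE 0.28, adjusted p = 0.0652; passed under 4 of 22 alternatives), and for tBSC minus Epi -0.37 (SE 0.28, interval of 2 SE from -0.93 to 0.19).

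Age made no difference that could be detected. At 24 against 2 months, 0 of the 10 genes passed in tBSC, Epi, aBSC or the mean of the 3 populations, and 0% of the 12468 genes did in limma. At an unadjusted p under 0.05 there were 182, 103, 233 and 281 genes and again 0 of the 10. These were 1.46%, 0.826%, 1.87% and 2.25% of all genes, each below the share of 0.05 expected with no difference, so the age tests were strict. Their SE is shared over all groups. Replicates correlated across genes at 0.984 and 0.997 in tBSC, but at 0.919 to 0.959 in Epi and aBSC. The lack of calls thus does not show that age has no effect. The mean age difference was negative for 9 of the 10 genes, from -0.33 for Uhrf1 (SE 0.18, unadjusted p = 0.0965, interval of 2 SE from -0.70 to 0.03) to -0.01 for Tet2 (SE 0.37), and 0.09 for Ezh1 (SE 0.16). The Uhrf1 difference was -0.44 (SE 0.32) in tBSC, -0.18 (SE 0.32) in Epi and -0.38 (SE 0.32) in aBSC. Dnmt1 was at 12.7 ± 0.109 FPKM at 2 months and 12.7 ± 0.572 at 24 months in tBSC (SD, n = 2), and the log2 difference was 0.00 (SE 0.23, interval of 2 SE from -0.46 to 0.46). The 2 old libraries both lay below the 2 young ones for 3 genes in tBSC (Uhrf1, Dnmt3a and Ezh2), where 27.3% of all genes did so, and for 3 genes in aBSC (Dnmt1, Uhrf1 and Ezh2), where 9.66% did. No gene of the 10 was separated in the other direction, against 26.8% of all genes in tBSC and 7.32% in aBSC. In Epi no gene of the 10 was separated by age, against 3.96% of all genes lower and 5.26% higher at 24 months. Leaving out the filter on low values gave 11, 4, 20 and 7 called genes in the 4 age comparisons, and none of the 10.

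**Figure D4:**
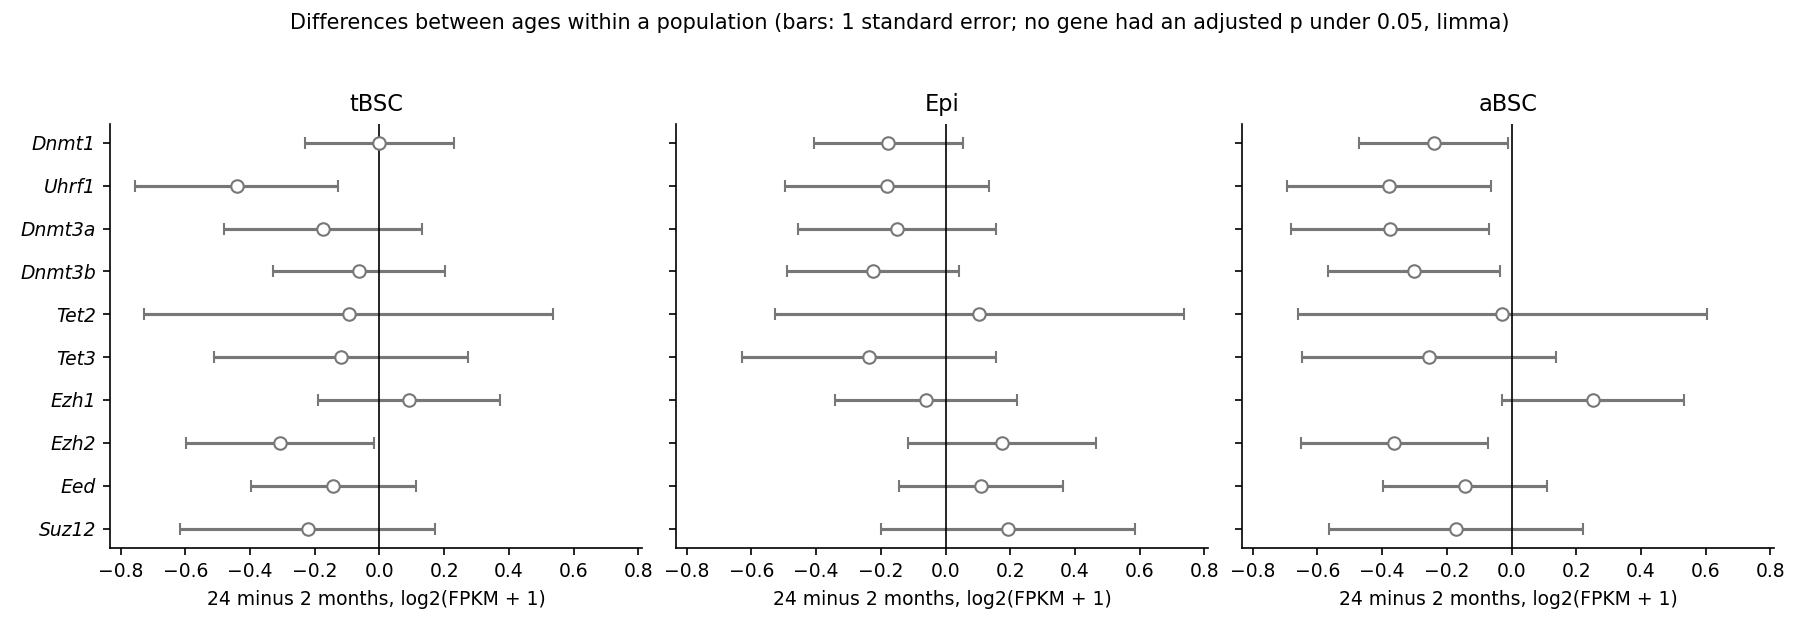
Difference in log2(FPKM + 1) between 24 and 2 months (horizontal axis) for the 10 genes (vertical axis) in each population, 2 libraries against 2, with 1 SE. No point is filled because none passed the test; differences run from -0.44 (Uhrf1 in tBSC) to 0.25 (Ezh1 in aBSC).

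Genes of cell division differed in the direction of Dnmt1, Uhrf1 and Ezh2, and opposite to Ezh1, and their part in these differences was not tested. Of 12 mitosis genes, 12 were lower in tBSC than in Epi (median log2 difference -2.82) and 12 higher in aBSC than in tBSC (3.09), and their summed FPKM ran from 32.5 to 63.6 in tBSC, 314.8 to 422 in Epi and 394.8 to 516.8 in aBSC. Of 22 DNA replication genes, 18 were lower in tBSC than in Epi (median -1.18) and 20 higher in aBSC than in tBSC (1.77). The 3 genes whose log2 levels over the 12 libraries were most like Uhrf1, of 8961 candidates, were Melk, Bub1b and Aurkb (Pearson r of 0.997, 0.994 and 0.993), and for Dnmt1 they were Timeless, Ung and Ncaph (0.996, 0.992 and 0.991). For Ezh2 they were Smc2, Kif11 and Esco2 (0.994, 0.993 and 0.993). The other members had other neighbours: Ctcf, Top2b and Smc6 for Suz12 (0.993, 0.989 and 0.983), Zscan21, P2rx4 and 5730409E04Rik for Ezh1 (0.980, 0.979 and 0.979), Brwd1, Zbed6 and Nsd1 for Tet2 (0.981, 0.972 and 0.972), and Znrf3, Brpf3 and Cramp1l for Tet3 (0.983, 0.978 and 0.977). Those of Dnmt3a were Yeats2, Fubp1 and S100pbp (0.966, 0.963 and 0.962), of Dnmt3b Utp20, Ppfia1 and Zw10 (0.954, 0.911 and 0.902), and of Eed Gmps, Dhx15 and 4933424B01Rik (0.967, 0.961 and 0.961). Among the members themselves, the highest correlation was that of Dnmt1 with Uhrf1 (0.976), and Ezh1 was negatively correlated with each of the other 9, from -0.89 with Tet3 to -0.57 with Suz12. These correlations describe 12 libraries that share populations, library preparation and the length trend, and carry no p.

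The partners of these genes came from lists chosen with earlier results in view, so their counts describe the libraries. Of all genes, 21.7% were higher and 12.7% lower in tBSC than in Epi. For aBSC against tBSC these shares were 14% and 17.1%. Of 12 tested partners of DNA methylation, 1 was higher and 1 lower in tBSC than in Epi, and 2 were higher and 1 lower in aBSC than in tBSC. Hells, the chromatin remodeller that opens DNA for methylation, had the largest differences, -1.89 for tBSC minus Epi (SE 0.27, adjusted p = 0.000349) and 2.89 for aBSC minus tBSC (SE 0.27, adjusted p = 5.57e-05). Zbtb4, a protein that binds methylated DNA, went the other way, 0.88 (SE 0.21) and -0.76 (SE 0.21). Of 8 PRC2 partners, 1 was higher and 3 lower in tBSC than in Epi, and 3 were higher and 1 lower in aBSC than in tBSC. Among them the Polycomb-like proteins Phf1 and Phf19, which guide PRC2 to chromatin, were opposed like Ezh1 and Ezh2: Phf1 was at 30.7, 30.5, 45.3 and 42.5 FPKM in tBSC against 6.61 to 11.4 in Epi and 10.3 to 16.6 in aBSC, and Phf19 at 0.381 to 0.777 in tBSC, 1.49 to 2.92 in Epi and 2.61 to 3.44 in aBSC. The log2 difference for tBSC minus Epi was 1.97 (SE 0.20) for Phf1 and -1.11 (SE 0.18) for Phf19. For aBSC minus tBSC it was -1.53 (SE 0.20) and 1.45 (SE 0.18). Phf19 was under 1 FPKM in every tBSC library and passed the filter on low values only through Epi and aBSC. Its differences from tBSC therefore describe levels near the floor and do not test the opposition.

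PRC1 is the polycomb complex that reads the histone mark through Cbx proteins and ubiquitinates histone H2A. It had 10 of 21 genes higher and 2 lower in tBSC than in Epi (median 0.49), against 21.7% and 12.7% of all genes. In aBSC against tBSC, 4 were higher and 3 lower (median 0.18), near the 14% and 17.1% of all genes. With equal library totals the second count was 8 higher and 3 lower. Cbx7 and Cbx8 were highest in tBSC, with log2 differences of 1.91 (SE 0.24) and 1.66 (SE 0.20) against Epi and -1.33 (SE 0.24) and -1.005 (SE 0.20) for aBSC minus tBSC. Cbx6 instead marked both bulge populations, at 15.6 to 18.0 FPKM in tBSC and 25.2 to 35.98 in aBSC against 0.886 to 2.18 in Epi. Its log2 difference was 2.83 (SE 0.17) for tBSC minus Epi, 3.61 (SE 0.17) for aBSC minus Epi and 0.77 (SE 0.17) for aBSC minus tBSC. The lysine 27 demethylases and the Bap1 complex, in which Bap1 removes ubiquitin from H2A, had 5 tested genes. Of these, 3 were higher in aBSC than in tBSC, where 14% of all genes were higher. They were Kdm6b by 1.65 (SE 0.28), Kdm6a by 1.25 (SE 0.28) and Asxl1, of the Bap1 complex, by 0.82 (SE 0.21). Bap1 itself was not called, at -0.47 (SE 0.22, adjusted p = 0.13). All its aBSC libraries lay below all tBSC libraries, as for 26.8% of all genes. Kdm6a lies on the X chromosome, and Xist separated the same populations, as given above.

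**Figure D5:**
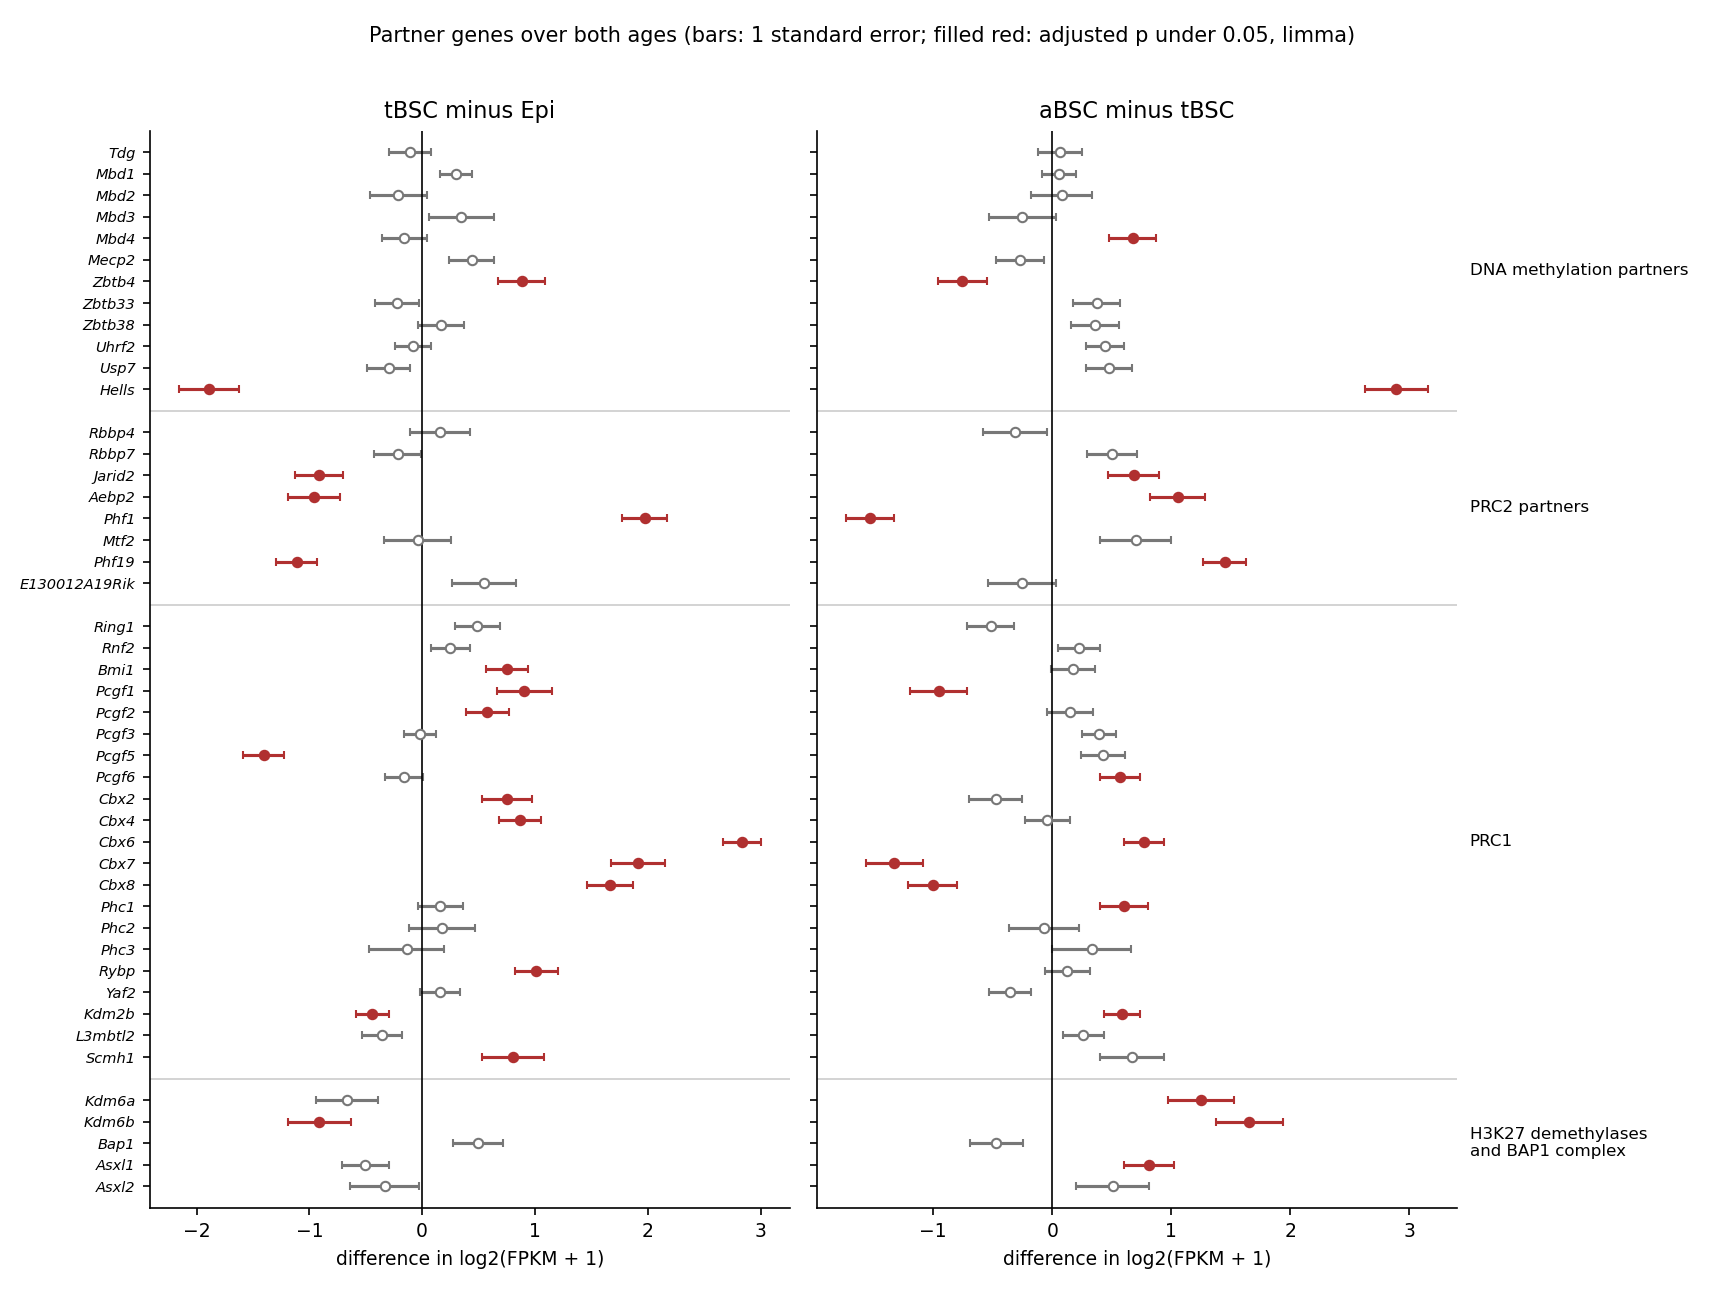
Difference in log2(FPKM + 1) over both ages (horizontal axis) for partner genes in 4 lists (vertical axis, grey lines between lists), 4 libraries against 4, with 1 SE; filled red points have an adjusted p under 0.05. Hells lies at -1.89 on the left and 2.89 on the right, Phf1 and Phf19 lie on opposite sides of 0, and Cbx6 lies right of 0 in both panels.

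Genes often used as readouts of these marks were mostly silent. Of 9 classical polycomb targets 1 could be tested, Cdkn2b, which was at 2.68 to 6.92 FPKM in tBSC, 2.71 to 4.67 in Epi and 1.15 to 7.76 in aBSC, overlapping in all 3. Cdkn2a, a target that is often lifted in old tissue, was at most 0.509 FPKM in any library. None of 10 germline genes silenced by DNA methylation passed the filter, and their summed FPKM was at most 1.25 in any library.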

How the data were processed

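The submitters' processing notes name TopHat, Cufflinks and mm9, with no versions. The FPKM deposited by the authors cover 28018 annotated transcripts in each of 12 libraries, inside the attribute field of the transcript rows. These values lay 12533 to 18522 times above the usual FPKM scale, an estimate from deposited coverage and confidence bounds, so all were divided by 1 constant, 16679.9, which changes no ratio between libraries. The estimate was 12533 to 15940 in replicate 2 of Epi and aBSC and 17170 to 18522 in the other libraries, a difference that 1 constant leaves in. FPKM were summed per gene symbol. Tested genes had at least 1 FPKM in at least 2 libraries and a longest transcript of 300 nt or more, and 12468 remained once Krt14 and Krt5, listed at 0 beside very high values, were removed. log2(FPKM + 1) was analysed in limma 3.58.1 (R 4.3.3) as 1 mean per group, with a trended eBayes variance. Contrasts were two-sided and p-values adjusted by Benjamini-Hochberg. The spread is shared over 6 groups of 2. The fit was tested on simulated data. All 10 members are named in every comparison, up to 4 genes of smallest p per partner list, and 3 most alike genes per member. The members and lists were chosen with earlier results of these data known. Alternatives changed scaling, length trend, filter, pseudocount, transcript, variance model, libraries fitted and a replicate block. The files' mm9 coordinates and the GRCm38.p6 promoters (RefSeq, all 10 genes matched) were not converted. The 2 wounded libraries, 1 per age, entered no fit.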

Additional observations from a re-analysis of the deposited data

How the results depend on the processing

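Each of 140 member results was recomputed under up to 22 alternatives, and no called difference changed sign. Of 3066 recomputed values, 2939 kept their side of the threshold, 50 lost a call and 77 gained one. Of 27 calls, 17 held under every alternative run, among them Dnmt1, Uhrf1 and Ezh2 over both ages for tBSC against Epi and for aBSC against tBSC, and Ezh1 for tBSC against Epi. The number of members called moved as follows. For tBSC against Epi over both ages, 1 higher and 4 lower became 1 and 6 with quantile normalization. With the length trend removed this was 1 higher and 5 lower. For tBSC against Epi at 2 months, 3 became 5 with the length trend removed, 5 with the replicate block and 6 without replicate 2 of Epi and aBSC. For tBSC against Epi at 24 months, leaving out 1 library gave 2 to 4, the lowest without replicate 2 of tBSC at 24 months. For aBSC against tBSC at 2 months, 4 became 7 with the replicate block and 8 without replicate 2 of Epi and aBSC. At 24 months, 3 became 5 with the replicate block, 6 with only the groups compared and 7 without replicate 2 of Epi and aBSC. For aBSC against tBSC over both ages, leaving out 1 library gave 4 to 7, the lowest without replicate 2 of tBSC at 2 months or replicate 1 at 24 months. With quantile normalization or the length trend removed the count was 7 higher and 1 lower, against 6 and 1. With equal library totals it was 7 higher and 0 lower. For aBSC against Epi, 0 at 2 months became 1 without replicate 2 of Epi or replicate 1 of aBSC at 2 months and 3 without replicate 2 of Epi and aBSC, and 0 at 24 months became 2 there. Over both ages, 1 became 0 with quantile normalization or only the groups compared, 2 with equal library totals, 3 with the replicate block, 4 without replicate 2 of Epi and aBSC, and 0 to 2 when 1 library was left out. The cause was not tested. The setting without replicate 2 of Epi and aBSC was chosen after seeing the data and takes its spread from tBSC alone. Equal totals moved the median gene from -0.08 to 0.30 for aBSC against tBSC and from 0.08 to 0.32 for aBSC against Epi. Same-numbered libraries of different groups deviated together with correlations from -0.58 to 0.79, so the replicate block rests on a shared number and not on known pairs. For aBSC against Epi over both ages the replicate block added the calls of Dnmt1 (adjusted p = 0.0439) and Suz12 (adjusted p = 0.0331); among the 4 Epi and aBSC groups these correlations ran from 0.18 to 0.79. A group reduced to 1 library borrows its spread from the other groups. The age comparisons called 0 members under every alternative. Few fragments limit Dnmt3b, and 2 libraries per group limit every test at a single age.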

Other observations

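Wounded epidermis was measured in 1 library per age, on the authors' own FPKM scale and another annotation, so the values stand alone with no test and are not set beside the other libraries. At 2 and 24 months, Ezh2 was at 26.9 and 28.6 FPKM, Eed at 20.6 and 19.6, Suz12 at 8.47 and 5.72 and Ezh1 at 2.28 and 6.04. Dnmt1 was at 4.95 and 26.7 FPKM, Uhrf1 at 5.21 and 21, Dnmt3a at 0.348 and 1.99 and Dnmt3b at 0.233 and 1.16. Tet2 was at 3.26 and 3.44 FPKM and Tet3 at 1.40 and 4.16. Ezh2 was more abundant than Ezh1 in both libraries.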
